A study of Mus musculus with 14 samples.

Results

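The genes Thbs1, Fsip1, Spred1 and Rasgrp1 lie on mouse chromosome 2 between 116.5 and 118.6 Mb (build GRCm38, mm10). The interval, chr2:116500001-118600000, was taken with every H3K4me3 peak and every putative enhancer whose centre lay in it. It held 34 of the 25431 peaks and 113 of the 32965 enhancers. With the 4 genes it also held the start sites of 7 other protein-coding genes, out of 21938 in the GENCODE annotation of release M21. The interval was selected on the enhancer positions themselves, so its density is a description and was not tested. Its working name was an enhancer desert, but the lists show the opposite. The centre of the interval was poor in H3K4me3 peaks and in protein-coding genes and rich in enhancers, and it is called here the peak-free stretch between Rasgrp1 and Thbs1.

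Chromatin immunoprecipitation and sequencing (ChIP-seq) of H3K4me3 was carried out in iMEF cells, an immortalised line of mouse embryo fibroblasts. All samples carried Ash2l with exon 4 deleted by Cre-ER after addition of 4-hydroxytamoxifen, and all depended on a lentiviral FKBP-HA2-ASH2L fusion of the human protein. The line was 1 clone, so differences between clones could not be seen. H3K4me3 libraries came from untreated cells and from cells exposed to dTAG, which sends the fusion protein to degradation, for 30 min, 2 h, 4 h, 8 h or 16 h, with 2 replicates in each of the 6 groups. Input libraries came from untreated cells and from cells exposed to dTAG for 16 h, with 1 library each. The peak list unites all samples, the enhancers were defined in control cells, and both lists hold positions only. Depth is unknown from them, no value below has a replicate error, and no group is compared with another.

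H3K4me3 is a mark of the nucleosomes around active start sites, while enhancers are marked by H3K4me1 and H3K27ac in accessible chromatin. Thbs1 encodes thrombospondin-1, a secreted matricellular protein that restrains angiogenesis and activates latent TGF-beta, and fibroblasts are known to produce it. Spred1 encodes an EVH1 domain protein that recruits neurofibromin to the membrane and thereby dampens signalling from Ras to ERK. Rasgrp1 acts in the other direction, since it is a diacylglycerol-responsive exchange factor that loads Ras with GTP and is best known from T cells. Fsip1 encodes a protein that interacts with the fibrous sheath of the sperm tail.

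Sequences of some of the regions described below are shown first. RefSeq promoter windows (GRCm38.p6) were given for 2 of the 4 member genes. For Spred1, chr2:117120821-117121070 on the plus strand is the part before the RefSeq start. For Rasgrp1, chr2:117343002-117343127 on the minus strand is the part before the outermost annotated start. Fam98b lies between them and is shown as well, from chr2:117249489-117249738 on the plus strand. It too had a promoter peak, of 1147 bp. Capitals mark GC boxes (GGGCGG on either strand), which were found in 35.7% of 32851 RefSeq promoter windows. Those windows had 250 bases before and 50 after the start, more than the bases shown here. Spred1 had 2 matches and Rasgrp1 1 match in the bases shown, while Fam98b had 0. In the whole windows Spred1 had 3, Rasgrp1 1 and Fam98b 0.
Spred1: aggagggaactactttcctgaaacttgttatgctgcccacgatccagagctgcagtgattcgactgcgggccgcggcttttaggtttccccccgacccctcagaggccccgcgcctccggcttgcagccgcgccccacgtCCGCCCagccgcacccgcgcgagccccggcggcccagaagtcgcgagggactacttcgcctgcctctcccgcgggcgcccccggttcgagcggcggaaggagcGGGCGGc
Rasgrp1: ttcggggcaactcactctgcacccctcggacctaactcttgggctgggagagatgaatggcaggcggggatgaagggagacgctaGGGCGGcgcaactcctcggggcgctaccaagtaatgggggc
Fam98b: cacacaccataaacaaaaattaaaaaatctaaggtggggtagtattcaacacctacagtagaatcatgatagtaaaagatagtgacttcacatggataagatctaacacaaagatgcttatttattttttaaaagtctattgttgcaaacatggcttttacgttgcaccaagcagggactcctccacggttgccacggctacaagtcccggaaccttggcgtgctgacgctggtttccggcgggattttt

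Some of the enhancers lay under a peak far from any start site. The central 300 bases of the enhancer between Spred1 and Fam98b (chr2:117231567-117231866) and the whole enhancer in an intron of Fsip1 (chr2:118179656-118179945) are given on the plus strand, because a narrow H3K4me3 peak lay on each. In the bases shown neither held a match to AP-1 (TGANTCA), RUNX (TGTGGTT) or TEAD (ACATTCC) on either strand. Most enhancers lack each of them, since they were found in 30.2%, 13.7% and 11.9% of all enhancers.
Spred1-Fam98b: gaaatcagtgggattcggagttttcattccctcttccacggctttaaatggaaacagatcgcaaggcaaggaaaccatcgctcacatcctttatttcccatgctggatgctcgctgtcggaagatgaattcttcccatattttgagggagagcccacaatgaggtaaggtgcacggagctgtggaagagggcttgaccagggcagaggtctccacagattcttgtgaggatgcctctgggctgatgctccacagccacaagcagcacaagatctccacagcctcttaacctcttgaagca
Fsip1 intron: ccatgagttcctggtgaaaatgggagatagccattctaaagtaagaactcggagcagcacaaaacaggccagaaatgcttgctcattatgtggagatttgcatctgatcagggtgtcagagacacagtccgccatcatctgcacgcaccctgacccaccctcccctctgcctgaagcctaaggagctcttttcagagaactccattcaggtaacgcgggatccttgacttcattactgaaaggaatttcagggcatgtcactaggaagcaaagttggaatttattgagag

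The next 4 sequences are members of the longest chain of enhancers in the interval, upstream of Thbs1. Of its 10 members of at most 300 bases, they are the 4 that held an AP-1 or a RUNX match. They lie at chr2:117875412-117875644, chr2:117882386-117882660, chr2:117911196-117911472 and chr2:117917276-117917478, all given on the plus strand. Capitals mark AP-1 and RUNX matches. The third held 1 AP-1 match and 2 RUNX matches.
Chain enhancer 1: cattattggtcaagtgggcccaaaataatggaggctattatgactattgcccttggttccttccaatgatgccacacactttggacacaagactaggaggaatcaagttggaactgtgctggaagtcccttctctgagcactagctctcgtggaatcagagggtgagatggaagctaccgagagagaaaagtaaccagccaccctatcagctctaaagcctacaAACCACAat
Chain enhancer 2: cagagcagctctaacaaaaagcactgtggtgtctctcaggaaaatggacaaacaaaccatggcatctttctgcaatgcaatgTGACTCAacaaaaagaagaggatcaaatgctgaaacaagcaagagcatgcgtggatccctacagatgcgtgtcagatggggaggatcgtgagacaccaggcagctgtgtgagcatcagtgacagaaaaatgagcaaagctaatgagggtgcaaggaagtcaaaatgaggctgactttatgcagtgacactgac
Chain enhancer 3: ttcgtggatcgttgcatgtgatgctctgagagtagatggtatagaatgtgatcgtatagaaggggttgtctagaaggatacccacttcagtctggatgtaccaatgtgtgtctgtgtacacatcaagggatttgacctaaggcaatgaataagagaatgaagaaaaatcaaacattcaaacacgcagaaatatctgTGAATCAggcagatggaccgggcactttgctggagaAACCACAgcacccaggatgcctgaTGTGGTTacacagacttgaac
Chain enhancer 4: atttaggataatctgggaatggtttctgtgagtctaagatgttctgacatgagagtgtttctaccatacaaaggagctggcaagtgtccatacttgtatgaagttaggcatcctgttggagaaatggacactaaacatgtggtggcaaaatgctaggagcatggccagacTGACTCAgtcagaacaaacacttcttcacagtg

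The enhancer of the interval with the most AP-1 matches, 3, lay in an intron of Gpr176 (chr2:118287472-118287929, 458 bp). Of it, chr2:118287613-118287912 is given on the plus strand. Capitals mark the 3 AP-1 matches and a TEAD match between the first and the second of them.
Gpr176 intron: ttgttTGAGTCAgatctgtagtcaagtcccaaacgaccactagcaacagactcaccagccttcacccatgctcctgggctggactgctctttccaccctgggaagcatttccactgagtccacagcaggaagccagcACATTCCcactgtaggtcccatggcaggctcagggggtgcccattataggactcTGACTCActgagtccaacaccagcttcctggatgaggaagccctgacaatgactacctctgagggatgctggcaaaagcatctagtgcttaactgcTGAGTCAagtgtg

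The members stood in pairs that faced each other. Spred1, on the plus strand, and Rasgrp1, on the minus strand, had their ends 97.71 kb apart, with Fam98b between them. Thbs1, on the plus strand, and Fsip1, on the minus strand, had their ends only 3.29 kb apart. The start sites of Rasgrp1 and Thbs1 pointed away from each other, across 768.9 kb in which no protein-coding gene started.

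**Figure D1:**
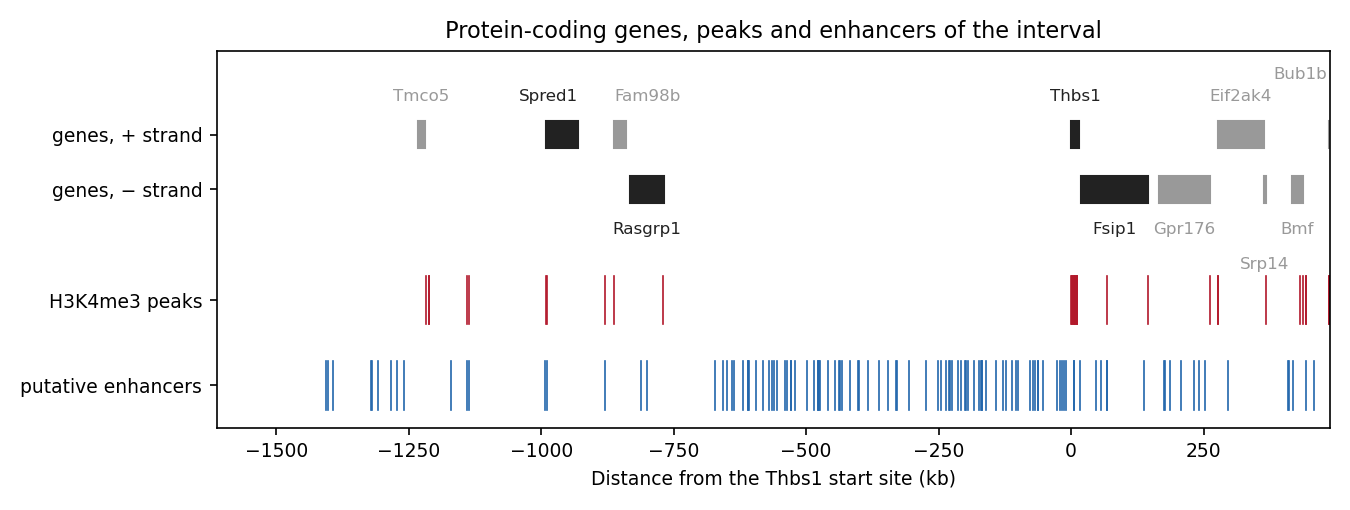
Protein-coding genes by strand, H3K4me3 peaks and putative enhancers of the interval, by distance from the Thbs1 start site in kb. Member genes are black and other genes grey, and each vertical line is the centre of 1 peak or enhancer. The 768.9 kb between the Rasgrp1 and Thbs1 start sites hold 75 enhancers and are empty of peaks except at their ends. No enhancer lies in the first 96.37 kb from the Rasgrp1 start.

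The interval held 53.8 enhancers per Mb, against 12.1 per Mb over chromosomes 1 to 19, X and Y. Among 26827 windows of the same length, placed every 100 kb, the median held 24 enhancers and the mean 25.64. Only 2 windows held more than the 113 of the interval, with 115 and 116, and both were this locus shifted by 100 or 200 kb. Peaks were not as dense. The interval had 16.2 peaks per Mb, or 34, and 4165 windows held more, with a median of 15. Protein-coding genes were at the median of the windows, with 11, so the interval as a whole was not poor in genes. The first enhancer inside lay 205 kb from the left bound and the last before it 81.8 kb outside. At the right bound these distances were 29.0 and 59.5 kb.

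Of the 4 member genes, 4 had a peak within 1 kb of a start site, the distance used here for a promoter peak, as did 59.1% of all protein-coding genes. Their widths differed widely. Spred1 carried the widest peak of the interval, 2823 bp (chr2:117119477-117122299). Among the 12966 genes with a promoter peak, 517 had a wider one, and the median was 1255 bp with quartiles of 908 and 1710 bp. The peak covered both annotated Spred1 start sites. A second peak of 702 bp (chr2:117122671-117123372) followed it and was fully intronic. Together they put 1628 bases of Spred1 under peaks, or 2.67% of the gene.

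Rasgrp1 had 1 peak, of 883 bp (chr2:117342198-117343080), and it lay on 4 of the 4 annotated start sites. It was narrower than that of 9948 genes. In the body of Rasgrp1, 63009 bp long, no further peak was found, and 1.28% of the gene was under a peak.

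Fsip1 had 1 promoter peak, of 345 bp (chr2:118256672-118257016), the narrowest at a main start site among the members. Only 2.46% of genes with a promoter peak had a narrower one. It covered 2 of the 3 annotated start sites, and no peak lay within 1 kb of the third start, which is inside the gene. A second peak in the body of Fsip1, of 264 bp, was fully intronic (chr2:118179643-118179906) and lay 37685 bp from the nearest protein-coding start site.

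Thbs1 differed from the other members in both the number and the place of its peaks. Its widest promoter peak, 1718 bp (chr2:118111914-118113631), was wider than that of 75.4% of genes. Yet neither of its 2 annotated start sites lay under a peak. The first start site, at position 118111876, lay in a gap of 247 bp between 2 peaks. The peak upstream of it, of 382 bp (chr2:118111285-118111666), ended 210 bp before the start site, and the downstream peak began 38 bp after it. Of 12177 genes with a peak within 1 kb of their outermost start site, 22.1% had no peak on the start base itself, and 10.2% had it between peaks. The upstream peak also lay 83 bp from the start of Gm13986, a noncoding transcript on the minus strand that starts 674 bp from Thbs1 and runs 253.9 kb away from it. The lists carry no strand, so the peak cannot be assigned to 1 of the 2 starts.

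**Figure D2:**
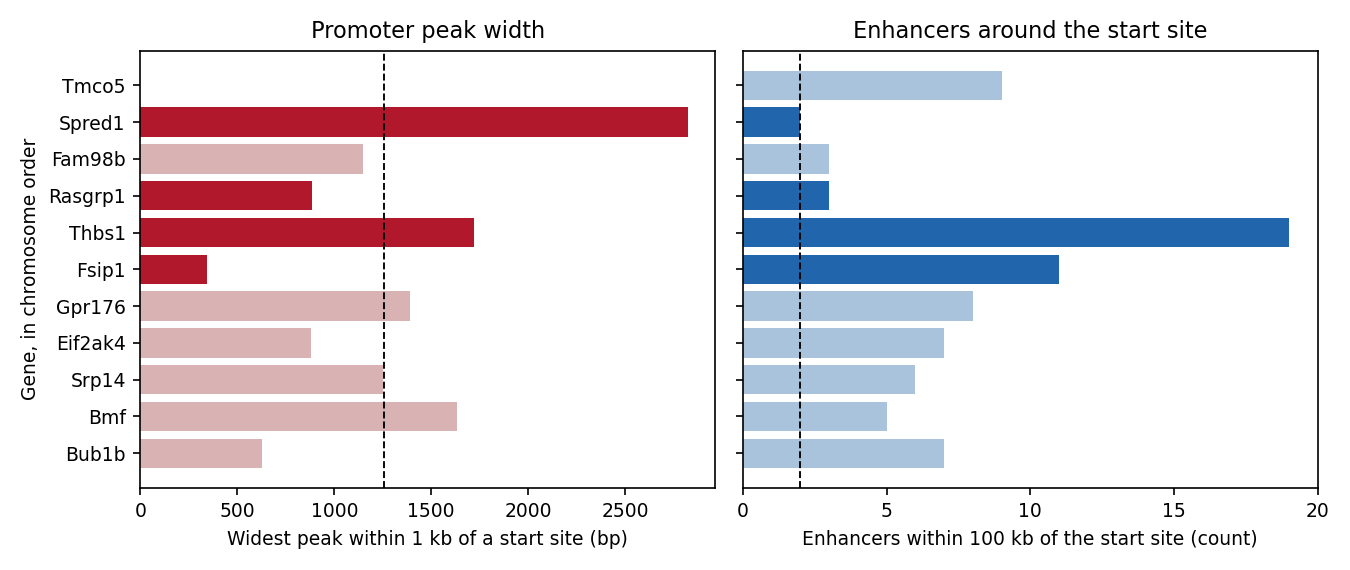
Left, width in bp of the widest H3K4me3 peak within 1 kb of a start site for the 11 protein-coding genes in chromosome order. Right, number of enhancers within 100 kb of the outermost start site. Members are dark and other genes light, and dashed lines give the medians of 1255 bp (genes with a promoter peak) and 2 enhancers (all protein-coding genes). Spred1 has the widest peak and 2 enhancers, and Thbs1 has 19 enhancers.

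Across the body of Thbs1, peaks followed each other from the start site almost to the end. With the upstream peak they numbered 12, which is 35.3% of all peaks of the interval, and they were 200 to 1718 bp wide with a median of 542 bp. The gaps between them measured 72 to 1232 bp, with a median of 247 bp. The last peak ended 2940 bp before the end of the gene. Of the 15258 bp of Thbs1, 8861 bp (58.1%) were under the 11 peaks that overlapped the gene. Of 21911 gene names, 13 had more peaks in their body and 18 had more bases under peaks. The median among genes with any peak was 1 peak and 1107 bases. Among 3997 genes of 10 to 20 kb, 1 had a larger share of its length under peaks. This was Nfe2l1, with 58.6% under 4 peaks, a gene named after its value was seen. Peaks in Thbs1 lay over exons and introns alike. The peak of 1695 bp (chr2:118115579-118117273) was 94.5% intronic, while one of 200 bp (chr2:118122424-118122623) was 89.0% exonic.

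Since several narrow peaks can be pieces of 1 broad domain, peaks at most 1 kb apart were also joined. The first 9 Thbs1 peaks then made 1 domain of 9907 bp. Of 18032 domains, 6 were wider and 2 held more peaks, and the median domain measured 1151 bp. The widest domain, of 21204 bp, lay at Hoxa7, Hoxa9 and Hoxa10. The last 3 peaks of Thbs1 formed a second domain of 1770 bp, over the region of the second start site and the start of the noncoding gene Gm29233. Spred1 gave a domain of 3896 bp, and 454 domains were wider. Rasgrp1 and Fsip1 kept domains of 1 peak.

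**Figure D3:**
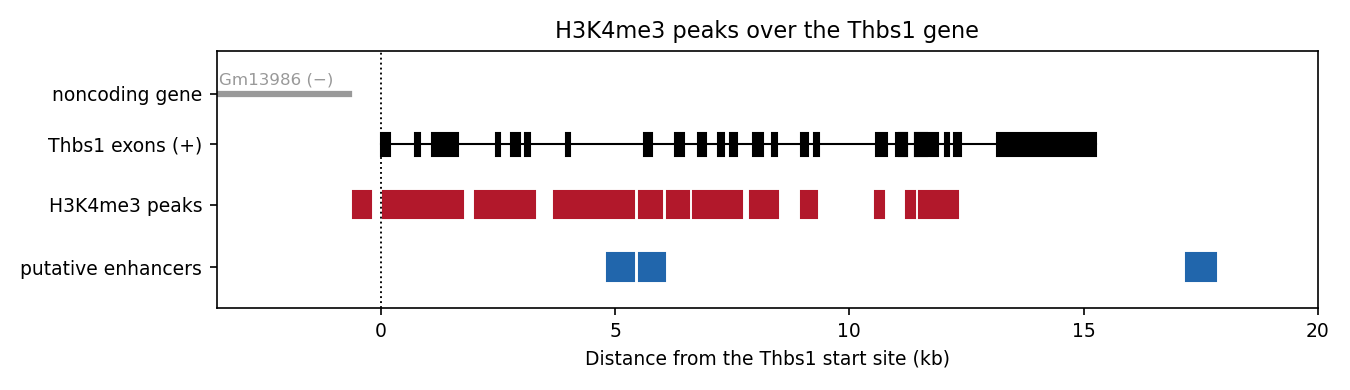
H3K4me3 peaks (red) and putative enhancers (blue) over Thbs1, by distance from its start site in kb (dotted line). Black boxes are annotated exons of all Thbs1 transcripts, and the grey bar is the start of the noncoding gene Gm13986. The start site lies in a gap of 247 bp, 11 peaks overlap the gene, and the last 2940 bp of the gene are without a peak.

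Of the 7 other protein-coding genes that start in the interval, 6 had a promoter peak, against 59.1% of all protein-coding genes. Gpr176, which encodes an orphan G protein-coupled receptor, had 1 of 1391 bp. Srp14, a subunit of the signal recognition particle, had 1 of 1253 bp, and Fam98b had 1 of 1147 bp. Bmf, which encodes a pro-apoptotic BH3-only protein, had a peak of 1634 bp at its main start sites and another of 554 bp at an internal start. Eif2ak4, the kinase GCN2 that senses uncharged tRNA, had 2 peaks, the wider of 882 bp, and Bub1b, a kinase of the spindle checkpoint, had 2 peaks, the wider of 630 bp. Tmco5 had none at 4 annotated start sites. Of the 25 other annotated genes that start in the interval, 4 had a peak within 1 kb of a start site. The share over all such genes was not computed, so this count cannot be called high or low. Gm13986 and Gm29233 shared theirs with Thbs1. The other two were the lincRNAs Gm29340, with 1 peak of 1085 bp, and D330050G23Rik, with 2 peaks of up to 273 bp.

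The base composition of the start sites differed among the members. Within 500 bp of the outermost start, Spred1 had a GC content of 76.7%, and its CpG ratio (observed over expected) was 1.01. Rasgrp1 had 62.1% and 0.642. Both met the limits used here for a CpG-rich start, a GC content over 50% and a ratio over 0.6, as did 44.4% of all protein-coding genes. Thbs1 had 56.9% and 0.573, and Fsip1 had 54.0% and 0.508, so both were below the limit for CpGs. In the interval 8 of 11 genes were CpG-rich and all 8 had a promoter peak. Over all genes 93.5% of the CpG-rich and 31.6% of the other genes had one.

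The stretch without any peak ran from the Rasgrp1 peak to the first Thbs1 peak (chr2:117343081-118111284, 768204 bp). It held 75 enhancers, or 66.4% of those of the interval in 36.6% of its length. Of the 25336 stretches between neighbouring peaks, 0 held more. There were 551 longer stretches, and these held a median of 4 and at most 67 enhancers. The next in order by number were the stretch from Myc to Gsdmc on chromosome 15, with 67 enhancers in 1615 kb, and that from Mmadhc to Rnd3 on chromosome 2, with 51 in 842.7 kb. By density the order changed. Of 133 stretches with at least 20 enhancers, 6 had more per Mb than the 97.6 of the stretch between Rasgrp1 and Thbs1, and the median was 33.9. The stretch between Ubash3b and Sorl1 on chromosome 9, for example, had 104 per Mb in 365.2 kb. Enhancers covered 4.04% of the bases between Rasgrp1 and Thbs1 and 0.624% of the chromosomes.

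**Figure D4:**
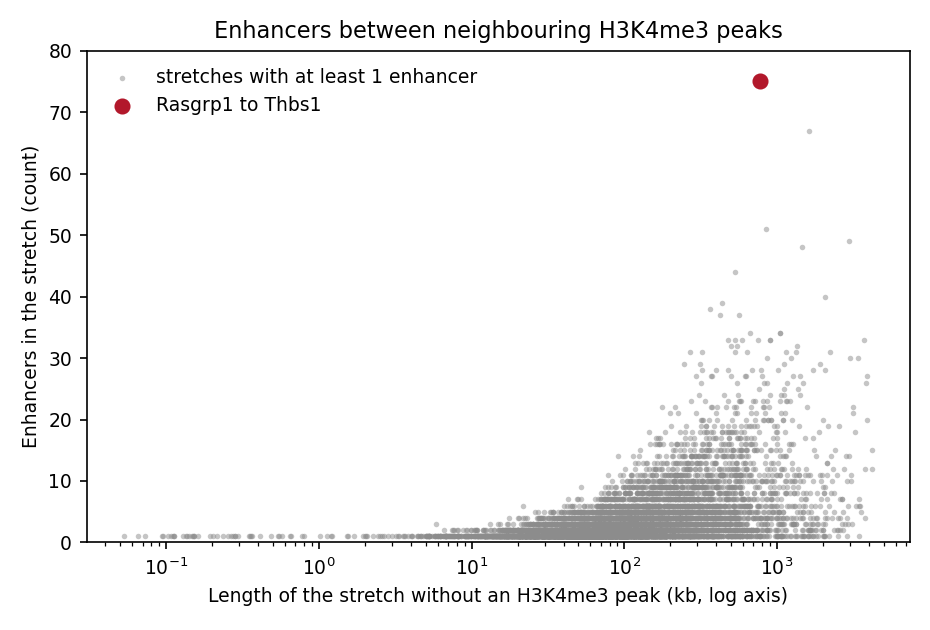
Number of enhancers in each stretch between neighbouring H3K4me3 peaks, by length of the stretch in kb on a log axis, for all stretches with at least 1 enhancer. The red point is the stretch of 768.2 kb between Rasgrp1 and Thbs1, with 75 enhancers. The grey point with the next highest count has 67.

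Within the stretch the enhancers were not even. None lay in the first 96.37 kb from the Rasgrp1 start, whereas the last lay 9.106 kb from the Thbs1 start. By distance alone 41 were nearer to the Thbs1 start and 34 to that of Rasgrp1. In bins of 100 kb, 4 bins held at least 12 enhancers, and all 4 were in the stretch. The highest, of 14, was centred at -561.88 kb from the Thbs1 start, and the 2 bins next upstream of the Thbs1 start held 13 each. The 3 bins between them held 12, 7 and 9. Of the 75 enhancers, 34 lay in the noncoding gene Gm13986 (253.9 kb), which borders on Thbs1.

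**Figure D5:**
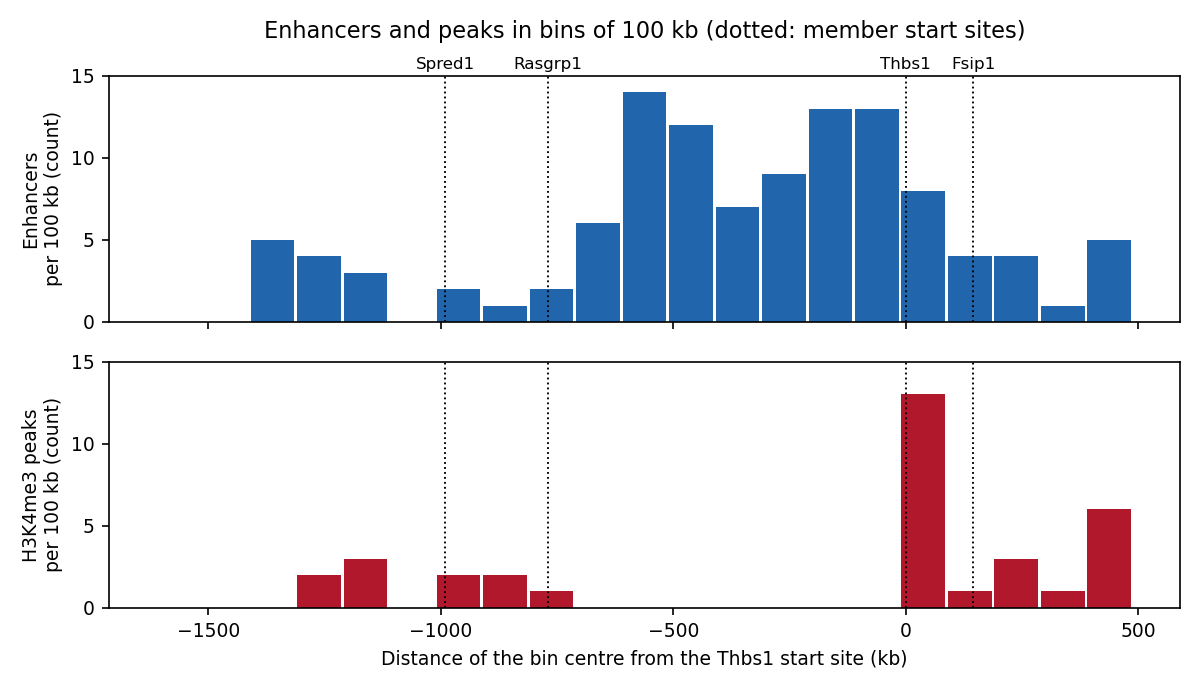
Enhancers (top) and H3K4me3 peaks (bottom) in bins of 100 kb, by distance of the bin centre from the Thbs1 start site in kb. Dotted lines are the start sites of the 4 member genes. Enhancers reach 14 per bin between Rasgrp1 and Thbs1, where peaks are at 0, and peaks reach 13 in the bin that holds Thbs1.

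Neighbouring enhancers of the interval were 8580 bp apart at the median, with quartiles of 3898 and 15958 bp. In the peak-free stretch the median gap was 6338 bp, and over all enhancers it was 18864 bp. Of the 112 gaps of the interval, 72 (64.3%) measured at most 12500 bp, the distance at which enhancers are commonly stitched, against 41.3% of all gaps. Joined at this distance, the 113 enhancers formed 41 chains, of which 18 were single enhancers and 8 had 5 or more members. These 8 chains held 53 enhancers (46.9%), and chains of that size held 13.4% of all enhancers. The longest chain had 17 enhancers over 91.09 kb (chr2:117860787-117951875), between 251.1 and 160.0 kb upstream of Thbs1. No chain of the 19350 had more members, and 1 other had as many, over 109.1 kb between Rxra and Col5a1 on chromosome 2. The enhancers of the chain were 121 to 1147 bp wide with a median of 277 bp. Of the 17, 4 held an AP-1 match, 3 a RUNX match and 1 a TEAD match. Over all enhancers the shares were 30.2%, 13.7% and 11.9%, so the chain was not rich in AP-1.

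Wide gaps lay around Spred1 and Rasgrp1, though not only there. Between enhancers that were both inside the interval, the longest gap, of 142.8 kb, ended at the enhancer before Spred1, and another of 108.2 kb began after the enhancer inside Spred1. Apart from the enhancer 1.063 kb before its start and the one 1.317 kb after it, no enhancer lay within 100 kb of the Spred1 start. The second longest gap, of 127.0 kb, contained the Rasgrp1 promoter, and the enhancer nearest to that start was 30.76 kb away, inside the gene. The third, of 111.3 kb, began in Eif2ak4, ended before Bmf and contained Srp14. Within 100 kb of the outermost start site, Thbs1 had 19 enhancers and Fsip1 had 11, but Rasgrp1 had 3 and Spred1 had 2. Counted from any annotated start site, Fsip1, whose internal start lies near Thbs1, had 23, and the other three were as before. The values that follow are from the outermost start. The median over all protein-coding genes was 2 and the highest number was 24. More enhancers than Thbs1 had 15 genes, and more than Fsip1 had 408. The windows of Thbs1 and Fsip1 overlap, because their starts are 145.1 kb apart, so they share enhancers.

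Most enhancers of the interval lay outside protein-coding genes and far from their start sites. In the body of a protein-coding gene were 19 of 113 (16.8%), against 51.8% of all enhancers. With noncoding genes counted as well, 56 of 113 (49.6%) were in a gene body, against 59.7% of all enhancers, and 34 of the 56 were in Gm13986. Spred1 held 1 of them, Rasgrp1 2, Thbs1 2, Fsip1 5 and Gpr176 7. From the nearest protein-coding start site they were 142.5 kb away at the median, with quartiles of 38.28 and 230.1 kb, while over all enhancers the median was 26.05 kb. More than 100 kb away were 65 enhancers (57.5%), against 20.4% of all. Thbs1 was the nearest protein-coding gene for 44 of the 113 and Rasgrp1 for 35. For Spred1 and Fam98b it was 2 each. Nearness does not say which gene an enhancer acts on.

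The enhancers of the interval were somewhat narrower than those of the whole list. They ranged from 56 to 1586 bp around a median of 354 bp (quartiles 254 and 591 bp), against 405 bp over all. Those in the peak-free stretch had a median of 312 bp. The widest, of 1586 bp, lay at the lincRNA Gm29340 (chr2:116975246-116976831), the next, of 1439 bp, in Gpr176 (chr2:118353169-118354607), and the third, of 1147 bp, at the end of the longest chain (chr2:117950729-117951875). Peaks of the interval had a median width of 576 bp, and all peaks 683 bp.

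Peaks and enhancers of the interval overlapped in 9 places. Of the 34 peaks 9 (26.5%, Wilson 95% confidence interval 14.6 to 43.1, for counting error only) shared at least 1 base with an enhancer, against 10.3% of all peaks. Of the 113 enhancers 9 (7.96%, 4.25 to 14.4) did so, against 7.52% of all. Of these, 2 were inside Thbs1, next to each other, with centres 5108 and 5788 bp after its start. Spred1 had 2, on either side of its start, and Gm29340 had 2. The other 3 were the enhancers between Spred1 and Fam98b, in the intron of Fsip1 and upstream of Bmf (chr2:118554400-118554805). Of the 34 peaks, 14 had no annotated start site of any gene within 1 kb, and 7 of these 14 were in Thbs1. For this class the share over all peaks was not computed, so the count is a description only.

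Motif matches were compared as shares of enhancers. AP-1, the motif of the FOS and JUN factors, was found in 24 of the 113 enhancers (21.2%, Wilson 95% confidence interval 14.7 to 29.7), against 30.2% of all enhancers. Of the 24, 19 held 1 match. In the peak-free stretch it was 24% (15.8 to 34.8). The RUNX motif was found in 21.2% (14.7 to 29.7) and in 13.7% of all, and the TEAD motif in 13.3% (8.21 to 20.8) and 11.9% of all. In the peak-free stretch RUNX was at 20% (12.5 to 30.4) and TEAD at 9.33% (7 of 75), below the share of all enhancers. Because the enhancers here were narrower, the same search was made within 200 bp of each centre, including bases outside the narrower enhancers. This gave 20.4% against 29.5% for AP-1, 19.5% against 11.6% for RUNX and 14.2% against 9.99% for TEAD. In the peak-free stretch TEAD was then at 9.33% and RUNX at 17.3% (10.4 to 27.4), against 9.99% and 11.6% of all. All intervals given for motifs cover counting error only, and no difference in motif share was tested. The TATA box (TATAAA) was found in 22.1% (15.5 to 30.6) of whole enhancers, against 19.5% of all, and within 200 bp of the centre in 26.5% (19.3 to 35.4), against 18.9%. In the peak-free stretch it was in 18.7% (11.5 to 28.9) of whole enhancers and in 28% (19.1 to 39.0) within 200 bp of the centre. Both AP-1 and RUNX matches were found in 3 enhancers (2.65%) and in 5.4% of all. GC boxes were found in 5.31% (2.46 to 11.1), against 11.4% of all. CCAAT was found in 39.8% and in 43.3% of all, the CArG box in 4.42% and 3.23%, and CREB in 0.885% and 0.619%. For EGR1 and NRF1 there were 0 matches in 113 enhancers, with an upper bound of 3.29%. Over all enhancers these motifs were as rare, at 0.182% and 0.0758%, so 0 in 113 does not set the interval apart. These shares are matches of letters and not bound sites. The median GC content was 46.5% in the interval and 48.2% over all enhancers.

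The relatives of the members were read from the same peak list. Of the thrombospondins, Thbs2 had a promoter peak of 1276 bp and Thbs3 one of 2648 bp. Comp, the cartilage member of the family, had one of 283 bp and Thbs4 had none. Of the receptors of thrombospondin-1, Cd47 had a promoter peak of 2031 bp and Cd36 none. In all 5 of 7 genes of this list had one, where 59.1% of all protein-coding genes did, and none but Thbs1 had more than 5 peaks in its body.

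Of the inhibitors of the Ras to ERK pathway 11 of 11 had a promoter peak, against the 59.1% of all protein-coding genes. Spred2 (2833 bp) and Spred3 (3502 bp) had widths like that of Spred1, and Dusp4 (3252 bp) and Dusp5 (3143 bp), which encode ERK phosphatases, were also wide. Spry2 had 2747 bp. Narrower were Dusp6 (1876 bp), Nf1 (1845 bp), which encodes neurofibromin, Spry1 (1777 bp), Rasa1 (1506 bp) and Spry4 (1327 bp). Of the exchange factors 5 of 8 had one, a share near the 59.1% of all genes. Sos1 (1602 bp) and Sos2 (2072 bp), the exchange factors downstream of receptor tyrosine kinases, had wider peaks than Rasgrp1, and Rasgrf2 had one of 883 bp. Rasgrp2, Rasgrp3 and Rasgrp4 had none, so Rasgrp1 was the only one of the 4 Rasgrp genes with a promoter peak in this list. Of the 4 sperm sheath genes Fsip1 had one, and Fsip2, Akap3 and Akap4 had none, where 59.1% of all protein-coding genes did. A list of 4 genes is too short to be set apart from that share.

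The labelled cell type was checked by the same rule. Of 10 fibroblast markers 10 had a promoter peak, against 59.1% of all protein-coding genes. The widest were at Prrx1 (3018 bp), Twist1 (2909 bp) and Col1a1 (2761 bp), and the narrowest at Col3a1 (382 bp), Fn1 (750 bp) and Col1a2 (1018 bp). Of 12 markers of epithelial, endothelial and neural cells 5 had one, namely Cdh1 (602 bp), Epcam (724 bp), Kdr (1009 bp), Tek (435 bp) and Tubb3 (1044 bp), so widths in both lists overlapped.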

How the data were processed

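ChIP-seq libraries of H3K4me3 were described by the labels for 12 samples in 6 groups, with 2 inputs. Before deposit the authors ran Trim Galore, BWA against mm10 (GRCm38.p6) and a samtools filter, joined the replicates by Picard and called narrow peaks by MACS. The deposited enhancers were positive for H3K4me1, H3K27ac and ATAC signal in control samples, outside 1 kb of start sites. Tool versions are not given in the sources used here. Both deposited lists hold positions without scores and 0 columns of values per sample, so differences over time were not analysed here.

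Peak starts were read as counting from 0 and enhancer starts as counting from 1, from the widths, and a wrong reading would move a start by 1 base. Positions here count from 1. On chromosomes 1 to 19, X and Y lay 25357 peaks, which all comparisons used. Start sites were the 5' ends of all GENCODE M21 transcripts, 3 enhancers of the interval (and 8.99% of all) lay within 1 kb of one, and Spry3 was not on these chromosomes. A region belonged to the interval by its centre. Motifs were searched on both strands in GRCm38.p6. The searched motifs were AP-1, TEAD, RUNX, CREB (TGACGTCA), GC box, CCAAT, EGR1 (GCGTGGGCG), NRF1, TATAAA and the CArG box. Intervals are Wilson 95%. No test was run. Interval and motif functions were tested on simulated data. Python 3.11.15, NumPy 2.4.6, SciPy 1.17.1 and Matplotlib 3.10.9 were used.

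The members, the gene lists and the rules were chosen with earlier results of these data known. Genes named were the members, all protein-coding genes that start in the interval, the family and marker lists, and, for regions, all overlaps, the widest enhancers, the longest chain and the longest gaps. Another of the marker lists is not reported here. Genes at the ends of other stretches and chains, the Hox genes and Nfe2l1 were named after their values were seen.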

Additional observations from a re-analysis of the deposited data

How the results depend on the processing

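No paired analysis was possible because neither list separates samples. Of 36 alternatives, 26 kept the value within 1.5 times or within its confidence interval. The number of peaks at promoters of the 4 members, 8, became 3 when a peak had to lie on the start base, 5 with 1 start site per gene and 4 with peaks of at least 500 bp. For all 11 genes it was 17, and became 10 on the start base and 11 with peaks of at least 500 bp. The number of member genes with a promoter peak fell from 4 to 3 on the start base, which left out Thbs1, and to 3 with peaks of at least 500 bp, which left out Fsip1. Peaks per Mb went from 16.2 to 5.0 in the central 1 Mb, which leaves out Thbs1 by its construction, and to 9.05 with peaks within 1 kb merged. Enhancers per Mb stayed between 46.8 and 66.0. The longest chain, of 17 enhancers, had 5 when chains were limited to 5 kb and 40 at 25 kb. The share of enhancers in gene bodies, 16.8%, rose to 49.6% when noncoding genes were counted (59.7% of all enhancers), where Gm13986 alone holds 34. The AP-1 share was between 20% and 24.2%. Without scores or samples, weak and strong peaks could not be told apart, and the peaks of 1 time point could not be separated from those of another.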
